A study of Mus musculus with 9 samples.

Results

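The 9 genes described here encode amino acid transporters of the plasma membrane: Slc38a1, Slc38a2, Slc7a1, Slc7a5, Slc7a11, Slc3a2, Slc1a4, Slc1a5 and Slc6a9. They were taken by gene name from the gene tables of all 9 libraries, which list 54986 gene identifiers, and each name matched 1 identifier. RNA-seq was made on total RNA of primary embryonic fibroblasts from C57BL/6 mice, and every library carries the label D4-OSKM-2ndMEFs. OSKM is the usual shorthand for the reprogramming factors Pou5f1, Sox2, Klf4 and Myc, so the control group carries it too and no group without it was compared. Of the 3 groups of 3 libraries, one is the control, one overexpresses Zscan4f, a zinc finger gene known from the early mouse embryo and from embryonic stem cells, and one overexpresses Zscan4f3A, by its label a variant of Zscan4f. No overexpressed gene and no empty vector is named for the control, and the sources used here give neither the meaning of D4 nor the sequence of the variant. Nothing in the labels says that the replicates came from separate cultures, so the p-values measure only the spread between these libraries, which may be technical.

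Mammalian cells take up amino acids through a set of carriers with overlapping substrates. The system A carriers (Slc38a1, Slc38a2 and Slc38a4) bring in small neutral amino acids such as alanine and glutamine together with sodium. The heavy chain encoded by Slc3a2, also known as CD98 or 4F2hc, pairs with light chains of the Slc7 family, and these exchangers trade an amino acid inside the cell for another outside: LAT1 (Slc7a5) carries large neutral amino acids such as leucine, and xCT (Slc7a11) brings in cystine, the source of cysteine for glutathione. The ASCT exchangers (Slc1a4 and Slc1a5) carry alanine, serine, cysteine and, in the case of Slc1a5, glutamine. Slc7a1 is the carrier of arginine and lysine known as CAT1, and Slc6a9, known as GlyT1, takes up glycine. Several of these genes are known targets of ATF4, the transcription factor that cells use when amino acids run short.

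Levels are given as TPM (a share of all transcripts in a library, corrected for transcript length), so that they can be compared between genes. Zscan4f itself, which checks the labels, was at 0.430 ± 0.488 TPM (SD, n = 3) in control, 564 ± 6.18 in the Zscan4f group and 772 ± 102 in the Zscan4f3A group. This sets control apart but cannot check which of the overexpressing groups holds the variant. The aligned sequence ran from 3.31 gigabases in Zscan4f3A replicate 3 to 8.39 gigabases. The 12 fibroblast markers summed to between 15184 and 15693 TPM over the 9 libraries, but with Zscan4f 3 of them rose, such as Col1a2 (4260 to 5050 TPM), and 6 fell, such as Vim (2418 to 2041 TPM), Fn1 (1965 to 1575 TPM) and Pdgfrb (58.0 to 40.6 TPM). The 9 epithelial markers summed to 124 to 128 TPM in control, 308 to 313 in the Zscan4f group and 141 to 146 in the Zscan4f3A group. Of their 8 tested genes, 7 rose and 1 fell with Zscan4f, beside 18.5% of all genes called in either direction. Cldn4, which rose, reached 1 TPM only in the Zscan4f libraries, and Krt5, which fell, only in those of control. Each was therefore tested only through the group where it was high. Endothelial markers summed to 30.8 to 33.8 TPM in control against 46.2 to 47.6 with Zscan4f, and macrophage markers to 14.9 to 17.2 against 21.8 to 24.0, with 3 of 5 and 4 of 6 of them under 1 TPM in every library. Tek alone went from 30.9 to 45.0 TPM while Tie1 was at 0.803 and 0.749, and Cd68 from 12.0 to 18.7 TPM while Lyz2 was at 2.94 and 3.10. Neural markers summed to 192 to 196 TPM in control and 258 to 277 with Zscan4f, with Nes and Tubb3 called higher and Map2 not called. The part of these marker changes in the transporter results was not tested. In bulk RNA, fewer cells of a type and less RNA per cell cannot be told apart, and this holds for every level below.

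In control fibroblasts the transporter transcripts spanned a wide range. Slc3a2 had the highest level, at 146 ± 6.40 TPM (SD, n = 3), followed by Slc38a2 at 107 ± 2.39, Slc1a4 at 60.9 ± 0.555 and Slc7a5 at 32.8 ± 0.992. Next came Slc1a5 at 29.8 ± 1.26 and Slc38a1 at 29.5 ± 1.22, whose libraries overlapped. Below them stood Slc7a1 at 25.9 ± 0.888, Slc6a9 at 14.6 ± 1.35 and Slc7a11 at 7.77 ± 0.332. All other neighbours in this order were apart in every control library. With Zscan4f, Slc38a1 passed both Slc1a5 and Slc7a5. The libraries of Slc3a2 and Slc38a2 then overlapped, as did those of Slc7a5 and Slc7a1. The 9 genes together summed to 454 ± 3.27 TPM in control, 472 ± 15.7 in the Zscan4f group and 458 ± 15.4 in the Zscan4f3A group, and these ranges overlapped. All 9 passed the filter on low values.

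**Figure D1:**
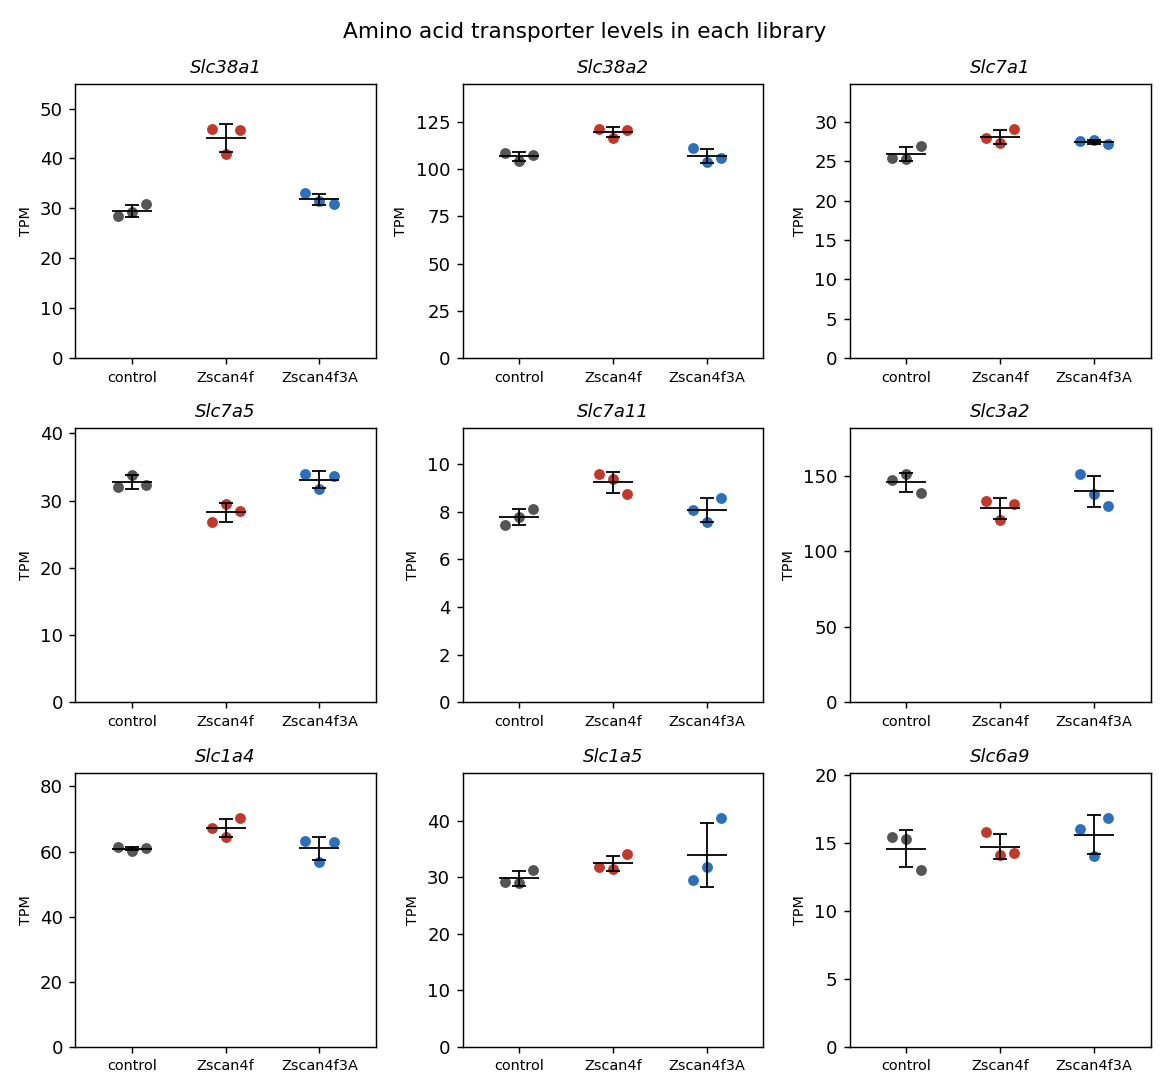
TPM of each of the 9 transporter genes in every library, with points for the libraries of the control, Zscan4f and Zscan4f3A groups and bars for the group mean and SD (n = 3). Slc38a1 stands between 40.9 and 45.8 TPM with Zscan4f and between 28.4 and 33.1 TPM in the other groups.

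Each gene was tested with limma on log2(TPM + 1), and calls required a p-value under 0.05 after Benjamini-Hochberg adjustment across the 15837 genes that were tested. Between Zscan4f and control, 3 of the 9 transporters changed: Slc38a1 and Slc38a2 rose and Slc7a5 fell. Over all genes tested, 18.5% were called in this comparison (8.74% higher and 9.71% lower), and with so few genes the count of 3 in 9 is not set apart from that background. The median log2 fold change of the 9 was 0.12, against -0.00 over all genes tested. Unadjusted p-values were under 0.05 for 7 of the 9, beside 4923 of all 15837 genes. In 8 of the 9 the libraries of the groups did not overlap. The share of all genes without such overlap was not computed, so this count does not set the 9 apart. The count of 7 is not read so either, because the 9 were chosen with earlier results of these data known. Between Zscan4f3A and control, 0 of the 9 were called and 0 had an unadjusted p under 0.05 with the same tool. Over all genes 0.0316% were called there, and 1389 of 15837 had an unadjusted p under 0.05. Between Zscan4f and Zscan4f3A, the count was again 3, with Slc38a1 and Slc38a2 higher and Slc7a5 lower with Zscan4f, where 15.1% of all genes were called (7.48% higher and 7.64% lower). The 2 comparisons of the Zscan4f group share its libraries, so that the same calls in both are not separate evidence.

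**Figure D2:**
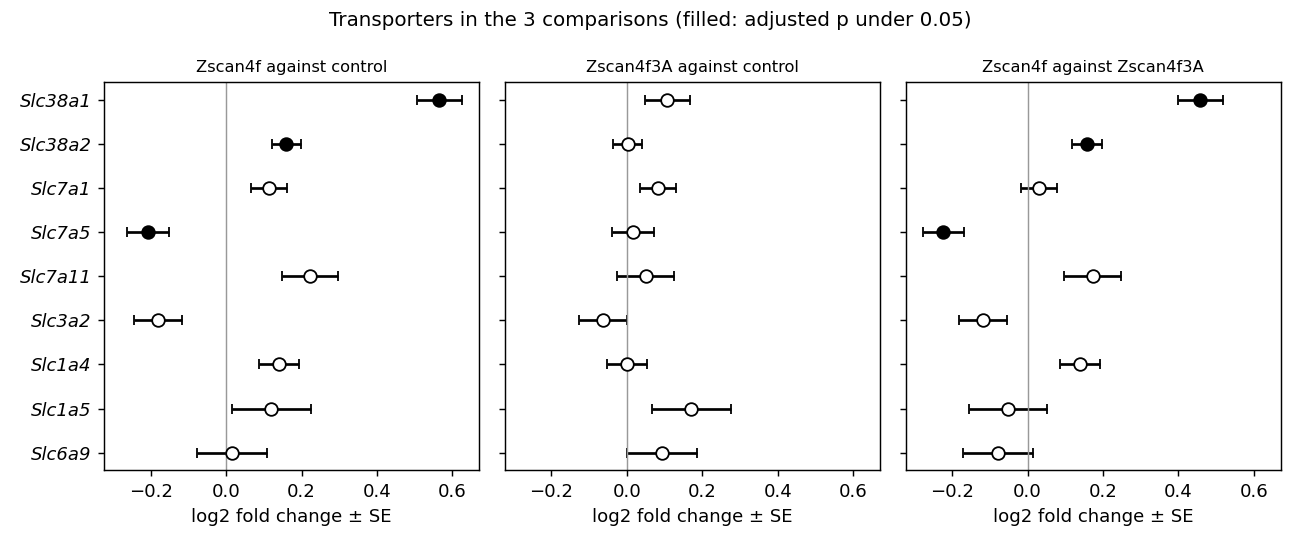
Log2 fold change on the log2(TPM + 1) scale of each transporter gene in the 3 comparisons, with bars for the SE of the limma fit. Filled points mark an adjusted p under 0.05, which Slc38a1, Slc38a2 and Slc7a5 reach in both comparisons of Zscan4f and no gene reaches for Zscan4f3A against control.

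Slc38a1 encodes SNAT1, a system A carrier known for glutamine uptake, and lies on chromosome 15 (GRCm38, 96571418 to 96642913, minus strand, ENSMUSG00000023169.15). Its level was 28.4, 29.2 and 30.8 TPM in the control libraries, 45.8, 40.9 and 45.7 with Zscan4f and 33.1, 31.5 and 30.9 with Zscan4f3A. All 3 Zscan4f libraries stood above all 6 others. Slc38a1 rose 1.50-fold from control in mean TPM, with a log2 change of 0.57 (SE 0.06, adjusted p = 0.000337). Against Zscan4f3A the log2 fold change was 0.46 (SE 0.06, adjusted p = 0.0015). The Zscan4f3A libraries lay just above those of control without overlap, with a log2 fold change of 0.11 and an adjusted p of 0.63. Slc38a1 was the transporter with the smallest p of the 9, and it was called against control in each of the 18 other settings and left-out libraries tried, with log2 fold changes of 0.49 to 0.62.

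Slc38a2 encodes SNAT2, the system A carrier that is known to be induced when amino acids are scarce. It lies next to Slc38a1 (GRCm38, chromosome 15, 96687392 to 96699730, minus strand, ENSMUSG00000022462.7). It was measured at 108.7, 104.1 and 107.8 TPM in control, 121.1, 116.4 and 120.9 with Zscan4f and 111.3, 104.1 and 105.7 with Zscan4f3A. The Zscan4f libraries were the highest 3, by a small margin. The log2 fold change against control was 0.16 (SE 0.04, adjusted p = 0.022), and against Zscan4f3A it was 0.16 (adjusted p = 0.029). Zscan4f3A against control gave 0.00 (adjusted p = 0.99). The call against control did not hold without control replicate 2 (adjusted p = 0.0766), control replicate 3 (0.0532), Zscan4f replicate 1 (0.0720) or Zscan4f replicate 3 (0.0774). Against Zscan4f3A it did not hold without Zscan4f replicate 1 (0.0884), Zscan4f replicate 3 (0.0940), Zscan4f3A replicate 2 (0.0880) or Zscan4f3A replicate 3 (0.0676). Quantile normalization (0.0583) and a fit without the control group (0.0637) ended it as well.

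The remaining system A gene, Slc38a4, is not one of the 9 but lies on the same stretch of chromosome 15 (GRCm38, 96994820 to 97055956, minus strand, ENSMUSG00000022464.14) and moved the other way. It encodes SNAT4 and is known as an imprinted gene expressed from the paternal copy. Slc38a4 was at 38.3, 50.07 and 50.01 TPM in control, 18.9, 12.8 and 13.9 with Zscan4f and 54.1, 51.1 and 52.9 with Zscan4f3A. Every Zscan4f library was lower than every other library. Slc38a4 fell by 1.55 on the log2 scale from control (SE 0.15, adjusted p = 0.000187) and its log2 fold change against Zscan4f3A was -1.75 (adjusted p = 0.000167), while Zscan4f3A against control gave 0.20 (adjusted p = 0.70). Measured by the deposited coverage per gigabase, an alternative chosen after seeing the data, these log2 fold changes were -0.69 and -0.68, both past the threshold. None of the 4 other annotated genes between Slc38a1 and Slc38a4 reached the filter on low values, and their group means were at most 0.0891 TPM.

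Because these 3 genes share a transport system, their levels were also added up, a sum chosen after the values were seen. The total came to 182 ± 6.65 TPM in the control libraries, 179 ± 8.01 with Zscan4f and 192 ± 6.17 with Zscan4f3A. The totals of control and Zscan4f overlapped, while those of Zscan4f all lay below those of Zscan4f3A. Its make-up differed. Slc38a1 made up 16.2% ± 0.225 of the sum in control and 24.7% ± 0.628 with Zscan4f. The share of Slc38a2 was 58.6% ± 2.88 and 66.9% ± 1.64, and that of Slc38a4 was 25.2% ± 2.96 and 8.46% ± 1.48. With Zscan4f3A the shares were 16.6%, 55.9% and 27.5%.

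**Figure D3:**
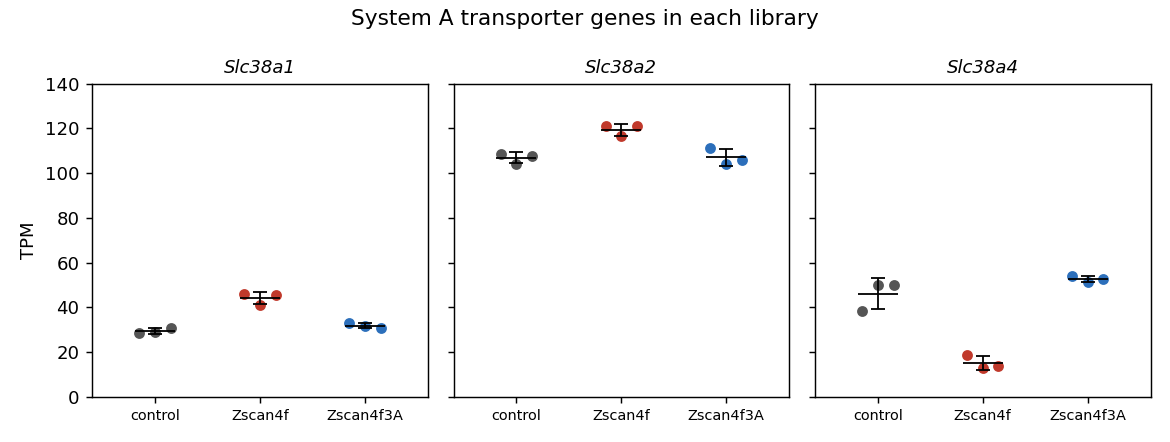
TPM of the system A genes Slc38a1, Slc38a2 and Slc38a4 on a common axis, with a point for each library and bars for the group mean and SD (n = 3). Slc38a4 lies between 12.8 and 18.9 TPM in the Zscan4f libraries and at 38.3 TPM or more in the others, while Slc38a1 and Slc38a2 are highest in the Zscan4f libraries.

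The start regions of Slc38a2 and Slc38a4 are shown because these neighbours moved in opposite directions. Each runs from 250 bases before to 50 bases after a start of the gene, in RefSeq on GRCm38.p6, 5′ to 3′ on the gene's strand. Slc38a2 is at chr15:96699679-96699978 (minus strand), and the Slc38a4 entry, the outermost of 3, is at chr15:97055907-97056206 (minus strand). Capitals mark matches on either strand to the motifs searched.
Slc38a2: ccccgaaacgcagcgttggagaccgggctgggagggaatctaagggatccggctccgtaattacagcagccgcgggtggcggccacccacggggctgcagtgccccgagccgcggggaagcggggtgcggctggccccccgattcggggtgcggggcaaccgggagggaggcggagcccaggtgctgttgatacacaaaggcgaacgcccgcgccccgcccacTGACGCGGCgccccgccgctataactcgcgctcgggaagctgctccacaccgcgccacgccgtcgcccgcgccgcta
Slc38a4: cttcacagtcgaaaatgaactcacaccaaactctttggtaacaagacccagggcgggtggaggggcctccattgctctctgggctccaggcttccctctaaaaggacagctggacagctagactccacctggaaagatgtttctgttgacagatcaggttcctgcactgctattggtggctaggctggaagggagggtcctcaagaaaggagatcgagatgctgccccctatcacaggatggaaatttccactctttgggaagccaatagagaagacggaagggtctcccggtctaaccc

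The motifs searched on both strands were the C/EBP-ATF response element TGATGNAA, held by 3.97% of 32817 RefSeq mouse promoters of this length, the E-box CACGTG (7.15%), the antioxidant response element TGACNNNGC (12.4%) and a ZSCAN4 core TGCACAC (4.4%). Entries were found for 6 of the 9 transporters, with 9 entries in all, and Slc38a1, Slc7a5 and Slc1a5 had none. The C/EBP-ATF element matched in 2 of the 9 entries, those of Slc7a11 and Slc1a4. The antioxidant element matched in 4, which were that of Slc38a2, an entry of Slc7a1 and alternative starts of Slc6a9. Entries of the same gene do not count as separate genes. In the Slc38a2 entry the capitals TGACGCGGC begin 27 bases before the start. The E-box and the ZSCAN4 core matched in 0 of the 9 entries. The printed Slc38a4 entry held none of the motifs. A match describes the letters only.

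Of the heavy chain and the light chains summed below, all but Slc7a11 had a lower mean with Zscan4f than in control. Among these genes only Slc7a5 was called. Slc7a5, which encodes the leucine exchanger LAT1 (GRCm38, chromosome 8, 121881150 to 121907694, minus strand, ENSMUSG00000040010.10), was at 32.1, 33.9 and 32.3 TPM in control, 26.8, 29.5 and 28.5 with Zscan4f and 34.0, 31.7 and 33.7 with Zscan4f3A. The 3 Zscan4f libraries were the lowest of the 9. Slc7a5 fell by 0.21 on the log2 scale from control (SE 0.05, adjusted p = 0.030) and differed by -0.22 from Zscan4f3A (adjusted p = 0.027), while Zscan4f3A against control gave 0.02 (adjusted p = 0.95). The call against control was lost without control replicate 1 (adjusted p = 0.0599), 2 (0.0993) or 3 (0.0654) and without Zscan4f replicate 1 (0.0934) or 3 (0.0748). Against Zscan4f3A it was lost without Zscan4f replicate 1 (0.0841) or 3 (0.0704), without Zscan4f3A replicate 1 (0.0781) or 3 (0.0690), and in a fit without the control group (0.0628).

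Slc3a2, the heavy chain that brings these exchangers to the cell surface (GRCm38, chromosome 19, 8706882 to 8723369, minus strand, ENSMUSG00000010095.13), was at 147, 151 and 139 TPM in control, 133, 121 and 132 with Zscan4f and 151, 138 and 130 with Zscan4f3A. The Zscan4f libraries lay below all control libraries but overlapped those of Zscan4f3A. Its log2 fold change against control was -0.18 (SE 0.06) and did not pass the threshold (adjusted p = 0.089). Against Zscan4f3A it was -0.12 (adjusted p = 0.26), and between Zscan4f3A and control -0.06 (adjusted p = 0.78).

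Slc7a11, the cystine carrier xCT (GRCm38, chromosome 3, 49892526 to 50443614, minus strand, ENSMUSG00000027737.10), had the lowest level of the 9, at 7.43, 7.78 and 8.09 TPM in control, 9.59, 9.36 and 8.74 with Zscan4f and 8.08, 7.57 and 8.58 with Zscan4f3A. The Zscan4f libraries stood above the rest. The log2 fold change against control was 0.22 (SE 0.07), with an adjusted p of 0.076. It passed the threshold under quantile normalization (0.038) and with coverage per gigabase (0.04998). Against Zscan4f3A it was 0.17 (adjusted p = 0.17), and between Zscan4f3A and control 0.05 (adjusted p = 0.87).

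The sum of 5 light chains known to pair with Slc3a2, not a full list of such partners, covered Slc7a5, Slc7a6, Slc7a7, Slc7a8 and Slc7a11. It came to 85.5 ± 0.922 TPM in control, 78.4 ± 3.54 in the Zscan4f group and 87.3 ± 4.19 in the Zscan4f3A group. The Zscan4f sums were the lowest 3. Per heavy chain the light chain level was 0.588 ± 0.0262 in control, 0.612 ± 0.0614 with Zscan4f and 0.626 ± 0.0182 with Zscan4f3A, which overlap between Zscan4f and both other groups. By the deposited coverage the same ratio was 2.01, 2.06 and 2.17, so that its level depends on the measure. Among the light chains, Slc7a11 made up 9.08% ± 0.331 in control, 11.8% ± 0.586 with Zscan4f and 9.28% ± 0.814 with Zscan4f3A, and Slc7a5 made up 38.3% ± 0.840 and 36.1% ± 1.42 in the first pair of groups. Slc7a6, whose product carries basic and neutral amino acids, had 31.9 ± 1.15 TPM in the control libraries against 28.5 ± 1.51 with Zscan4f (adjusted p = 0.13). Slc7a7, its close relative, was at 12.9 and 12.3 TPM (adjusted p = 0.81). Slc7a8 did not reach 1 TPM in any library.

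**Figure D4:**
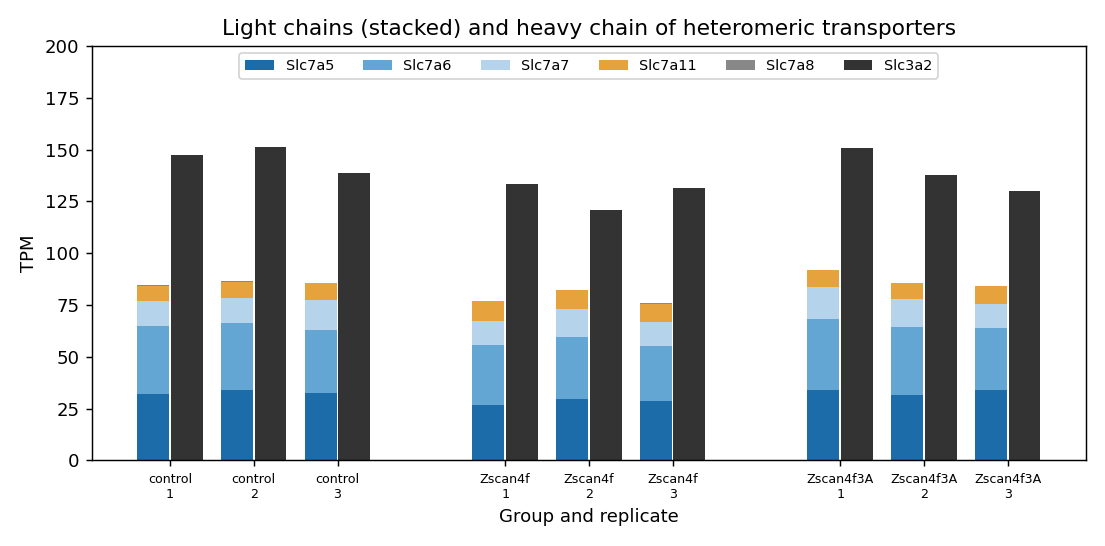
TPM in each library of the light chains Slc7a5, Slc7a6, Slc7a7, Slc7a11 and Slc7a8, stacked, beside the heavy chain Slc3a2. Slc3a2 lies between 121 and 151 TPM in all libraries, and the light chain stacks are lowest in the Zscan4f libraries, with means of 78.4 TPM there and 85.5 TPM in control.

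The start regions of Slc7a11 and Slc1a4 are printed because they hold the C/EBP-ATF element, to which ATF4 is known to bind as part of a dimer. Capitals mark the matches, which begin 66 and 47 bases before the start of Slc7a11 and 4 bases before that of Slc1a4, and which do not overlap one another. The sequences are from RefSeq on GRCm38.p6, at chr3:50443564-50443863 (minus strand) and chr11:20332664-20332963 (minus strand).
Slc7a11: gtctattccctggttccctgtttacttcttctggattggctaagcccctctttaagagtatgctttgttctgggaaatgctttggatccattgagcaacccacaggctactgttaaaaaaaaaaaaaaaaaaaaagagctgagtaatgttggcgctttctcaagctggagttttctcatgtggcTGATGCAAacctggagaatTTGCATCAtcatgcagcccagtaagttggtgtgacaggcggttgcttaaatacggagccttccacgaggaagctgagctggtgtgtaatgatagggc
Slc1a4: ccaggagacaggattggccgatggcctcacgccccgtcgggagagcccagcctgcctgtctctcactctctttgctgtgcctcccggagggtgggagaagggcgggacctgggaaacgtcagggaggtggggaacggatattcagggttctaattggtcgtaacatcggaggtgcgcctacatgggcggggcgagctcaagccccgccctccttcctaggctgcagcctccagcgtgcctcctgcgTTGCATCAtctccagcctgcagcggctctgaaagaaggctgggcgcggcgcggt

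Slc1a4 encodes ASCT1, an exchanger of alanine, serine and cysteine (GRCm38, chromosome 11, 20302180 to 20332713, minus strand, ENSMUSG00000020142.12). It was at 61.3, 60.3 and 61.1 TPM in control, 67.1, 64.4 and 70.2 with Zscan4f and 63.2, 56.8 and 62.9 with Zscan4f3A. The Zscan4f libraries were the highest 3, with a log2 fold change of 0.14 against control (adjusted p = 0.11) and 0.14 against Zscan4f3A (adjusted p = 0.12). Neither passed the threshold, and Zscan4f3A against control was at 0.00 (adjusted p = 1.00).

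Slc1a5 encodes ASCT2, known as a main glutamine carrier of dividing cells (GRCm38, chromosome 7, 16781340 to 16798274, plus strand, ENSMUSG00000001918.17). It was measured at 29.2, 28.9 and 31.2 TPM in control, 31.8, 31.5 and 34.1 with Zscan4f and 29.6, 31.8 and 40.4 with Zscan4f3A. The highest value belongs to Zscan4f3A replicate 3, the library with the least sequence. The log2 fold changes were 0.12 for Zscan4f against control (adjusted p = 0.50), 0.17 for Zscan4f3A against control (adjusted p = 0.65) and -0.05 for Zscan4f against Zscan4f3A (adjusted p = 0.78). Without that library the last was 0.078, with the opposite sign. The level of Slc1a4 per Slc1a5 was 2.05 ± 0.0790 in control, 2.07 ± 0.0330 with Zscan4f and 1.83 ± 0.293 with Zscan4f3A.

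Slc7a1, the arginine and lysine carrier (GRCm38, chromosome 5, 148327410 to 148399904, minus strand, ENSMUSG00000041313.14), varied least, by 1.15-fold over the 9 libraries. It was at 25.5, 25.3 and 26.9 TPM in control, 27.9, 27.4 and 29.1 with Zscan4f and 27.7, 27.7 and 27.2 with Zscan4f3A. The control libraries were the lowest 3. No comparison passed the threshold, with log2 fold changes of 0.11 for Zscan4f (adjusted p = 0.15) and 0.08 for Zscan4f3A (adjusted p = 0.64) against control, and 0.03 between them (adjusted p = 0.72).

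Slc6a9, the glycine carrier (GRCm38, chromosome 4, 117834506 to 117875198, plus strand, ENSMUSG00000028542.17), was at 15.4, 15.3 and 13.0 TPM in control, 15.8, 14.1 and 14.3 with Zscan4f and 16.0, 14.0 and 16.8 with Zscan4f3A. It was the transporter whose control and Zscan4f libraries overlapped. The log2 fold changes were 0.02 (adjusted p = 0.94), 0.09 for Zscan4f3A against control (adjusted p = 0.77) and -0.08 between the overexpressing groups (adjusted p = 0.62). Its exons share 1429 of 5141 bases with Ccdc24 on the opposite strand, and Ccdc24 itself was listed at up to 3.88 TPM. On that strand its exons also share 46 bases with B4galt2 (up to 48.6 TPM) and 511 with Gm17114. The sources used here do not say whether reads were assigned by strand, so the level of Slc6a9 is uncertain.

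Of 35 other amino acid transporters listed as those of the plasma membrane, 15 passed the filter on low values. Where in the cell each of them acts was not checked. The highest value among the 20 that did not pass was 0.869 TPM, for Slc16a10. Against control, 2 of the 15 rose with Zscan4f and 3 fell, beside the 18.5% called over all genes, with a median log2 fold change of -0.18. Slc6a6, the taurine carrier TauT, was higher than any of the 9 transporters, at 288 ± 7.98 TPM in control and 343 ± 7.04 with Zscan4f (log2 fold change 0.25, adjusted p = 0.0011). Slc6a15, a carrier of neutral branched-chain amino acids, fell from 5.34 ± 0.771 to 1.26 ± 0.283 TPM (-1.49, adjusted p = 0.000498), with a log2 change of -0.51 by coverage per gigabase, still called. Slc6a17, another neutral amino acid carrier, rose from 0.707 ± 0.355 to 1.58 ± 0.115 TPM (0.61, adjusted p = 0.037). Outside the Zscan4f group only control replicate 1 reached 1 TPM. Slc6a17, counted among the 2 that rose, thus passed the filter only through the group where it was high. This call rests on low levels. It was lost without control replicate 2 (0.0868) or 3 (0.0943), Zscan4f replicate 1 (0.107), 2 (0.0897) or 3 (0.0872) or Zscan4f3A replicate 2 (0.0544), and with a pseudocount of 0.1 (0.0597), no filter (0.0669) or a fit without the Zscan4f3A group (0.0601). Its log2 change ran from 0.12 by coverage per gigabase to 1.15 with the pseudocount of 0.1. Slc38a4, described above, fell as well. Slc7a2, a relative of Slc7a1 that also carries basic amino acids, fell from 30.2 ± 0.592 to 26.5 ± 1.12 TPM (-0.19, adjusted p = 0.036). Slc7a2 lost its call without control replicate 1 (0.108), 2 (0.0680) or 3 (0.0866), Zscan4f replicate 2 (0.111) or 3 (0.0770) or Zscan4f3A replicate 2 (0.0522), in a fit without the Zscan4f3A group (0.0544) and by coverage per gigabase (-0.11, 0.102). The replicate number as a block ended it as well (0.0746). Of the others at 10 TPM or more in a group, Slc36a1, a proton-coupled carrier whose control libraries ran from 7.23 to 18.3 TPM, was at 14.5 ± 6.32 in control and 19.1 ± 0.602 with Zscan4f (adjusted p = 0.55), Slc36a4 at 20.9 and 20.1 (0.66) and Slc43a2 at 17.8 and 21.3 (0.063). The count of 5 called was 3 without control replicate 2 or 3, without Zscan4f replicate 2 or 3, without Zscan4f3A replicate 2 and in a fit without the Zscan4f3A group. Between Zscan4f and Zscan4f3A, Slc6a6 was higher (0.24, adjusted p = 0.0018), and Slc38a4, Slc6a15, Slc7a2 and Slc7a3 were lower. In that comparison 15.1% of all genes were called. Slc7a3, a further basic amino acid carrier that like Slc6a17 falls outside the rule for named genes and was chosen after its values were seen, was at 3.62 and 5.80 TPM (-0.57, adjusted p = 0.027). There Slc7a2 lost its call without any of the control or Zscan4f replicates or Zscan4f3A replicate 2 or 3, with adjusted p-values of up to 0.107. Its call was also lost in a fit without the control group (0.0808), with the replicate number as a block (0.0737) and by coverage per gigabase (0.0536). The count of 5 was 3 without Zscan4f replicate 1 or Zscan4f3A replicate 2, where Slc7a3 lost its call (0.0650 and 0.0814), as it did without Zscan4f3A replicate 1 (0.0790), with no filter (0.0745), with quantile normalization (0.0562) and in a fit without the control group (0.0641). With the replicate number as a block the count was also 3, and Slc7a3 lost its call (0.0655). By coverage per gigabase the Slc7a3 difference was -0.35, still called.

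The 7 pathway lists, the other transporters included, held 120 tested genes. Of these 31 were called between Zscan4f and control (25.8%, beside 18.5% of all genes), with 21 higher and 10 lower. Between Zscan4f3A and control 0 of the 120 were called, and between Zscan4f and Zscan4f3A 30 were called (25%, beside 15.1% of all genes), 18 higher and 12 lower. The last count was 18 without Zscan4f replicate 3 and 19 without Zscan4f replicate 1. Among genes with a TPM of at least 5 in 3 libraries, 2680 of 11808 were called between Zscan4f and control. Between Zscan4f and Zscan4f3A, 2231 of those 11808 were called. The lists were chosen with earlier results of these data known.

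Of 14 tested lysosomal and mitochondrial amino acid carriers, 3 rose with Zscan4f and 0 fell (21.4%, beside 18.5% of all genes). The median log2 fold change was -0.03. Pqlc2, the lysosomal exporter of basic amino acids, went from 17.7 to 23.6 TPM (adjusted p = 0.013). Slc25a13, the mitochondrial aspartate and glutamate carrier, went from 10.8 to 13.8 TPM (0.018), and Sfxn1, which carries serine into mitochondria, from 33.2 to 38.4 TPM (0.028). Slc25a12, the other aspartate and glutamate carrier, had 26.0 ± 8.10 TPM in control and 16.1 ± 1.49 with Zscan4f, with overlapping libraries (-0.62, adjusted p = 0.075). The count of 3 was 1 without Zscan4f replicate 2. The Slc25a13 call was lost without control replicate 2 (0.0569), Zscan4f replicate 1 (0.0578) or Zscan4f replicate 2 (0.0536). The Sfxn1 call was lost without control replicate 2 or 3 or any of the Zscan4f replicates, with adjusted p-values of up to 0.0918. The replicate number as a block ended it as well (0.0596).

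The list of 19 tested amino acid response genes, which holds ATF4 and its targets, split. With Zscan4f 4 rose and 1 fell (26.3%, beside 18.5% of all genes), and the median log2 fold change was -0.02. Stc2, a secreted glycoprotein of the stress response, rose from 142 ± 0.718 to 172 ± 0.554 TPM (0.27, adjusted p = 0.00093). Ddit4, an inhibitor of mTORC1, went from 91.7 to 116 TPM (0.33, adjusted p = 0.0012), and Eif4ebp1, which holds back translation, from 90.9 to 108 TPM (0.25, adjusted p = 0.0028). Aldh18a1, an enzyme of proline synthesis that was also named outside the rule after its values were seen, went from 58.7 to 69.5 TPM (0.24, adjusted p = 0.019), and lost its call without control replicate 2 (0.0636), Zscan4f replicate 1 (0.0526) or Zscan4f replicate 3 (0.0712). Atf5, a transcription factor of the same response, fell from 168 ± 7.83 to 135 ± 1.09 TPM (-0.31, adjusted p = 0.011). Atf4 itself, likewise named outside the rule, had 192 ± 1.82 TPM in the control libraries and 152 ± 16.7 with Zscan4f, which did not pass the threshold (adjusted p = 0.17).

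All 20 aminoacyl-tRNA synthetases, which load amino acids on tRNA, were tested. Of them 6 rose and 1 fell with Zscan4f (35%, beside 18.5% of all genes), with a median log2 fold change of 0.09. Farsb, a subunit of the phenylalanine enzyme, went from 42.7 to 53.0 TPM (0.31, adjusted p = 0.0058), and Kars, the lysine enzyme, from 126 to 143 TPM (0.18, adjusted p = 0.011). Rars, the arginine enzyme, went from 109 to 126 TPM (0.21, adjusted p = 0.028). Lars, the leucine enzyme, fell from 69.2 to 58.9 TPM (-0.23, adjusted p = 0.0060). The count of 7 synthetases called was 3 without control replicate 1 or 3 and without Zscan4f replicate 1 or 2. It was 4 without Zscan4f replicate 3, with quantile normalization or with the replicate number as a block. Rars lost its call without any of the control replicates, Zscan4f replicate 1 or Zscan4f replicate 2, with adjusted p-values of up to 0.0938. Its call was also lost with no filter (0.0572) and with the replicate number as a block (0.0582).

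Among 16 tested genes of glutathione synthesis and NRF2 targets, 3 rose and 1 fell with Zscan4f (25%, beside 18.5% of all genes). The median was 0.02. Gpx4, the enzyme that reduces lipid peroxides with glutathione, rose from 825 ± 14.2 to 1011 ± 14.2 TPM (0.29, adjusted p = 0.00017). Gsr, which regenerates glutathione, rose from 26.7 to 37.3 TPM (0.47, adjusted p = 0.00026), and Srxn1, sulfiredoxin, from 45.8 to 57.3 TPM (0.32, adjusted p = 0.0027). Hmox1, heme oxygenase, fell from 82.3 to 63.6 TPM (-0.37, adjusted p = 0.0027).

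Of 12 tested genes for the use of glutamine and branched-chain amino acids, 2 rose and 2 fell with Zscan4f. That was 33.3%, beside 18.5% of all genes, with a median of 0.02. Glul, glutamine synthetase, fell from 150 ± 4.79 to 107 ± 2.87 TPM (-0.48, adjusted p = 6.8e-05), and Bcat2, the mitochondrial aminotransferase for branched-chain amino acids, fell from 28.8 ± 6.04 to 14.7 ± 1.11 TPM (-0.91, adjusted p = 0.0025), with -0.54 by coverage per gigabase, still called. Got2, the mitochondrial aspartate aminotransferase, went from 174 to 206 TPM (0.24, adjusted p = 0.00096), and its cytosolic partner Got1 from 33.8 to 39.3 TPM (0.21, adjusted p = 0.025). Got1 lost its call without control replicate 1 (0.0675) or 2 (0.0829) and without Zscan4f replicate 1 (0.0680), 2 (0.0844) or 3 (0.0508). With the replicate number as a block the Got1 call was lost too (0.0603).

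Of 26 listed genes by which mTORC1 senses amino acids, 24 were tested. Castor1 and Castor2 were not found under those names. Of the 24, 1 rose and 2 fell with Zscan4f, with a median of 0.03. The share called was 12.5%, below the 18.5% of all genes. Sesn1, whose family includes a leucine sensor, fell from 25.5 ± 1.26 to 17.1 ± 0.0375 TPM (-0.55, adjusted p = 0.00025), with -0.33 by coverage per gigabase, still called. Rragd, a Rag GTPase, went from 6.57 to 3.96 TPM (-0.61, adjusted p = 0.019), and Sec13, a subunit of the GATOR complex and of the secretory coat, from 235 to 260 TPM (0.15, adjusted p = 0.018). Depdc5, the next by p, was at 9.84 and 11.5 TPM (adjusted p = 0.13). Sec13 lost its call without control replicate 1 or 3 or Zscan4f replicate 2 or 3, with adjusted p-values of up to 0.0658, and with quantile normalization (0.0701). Rragd lost it without the same libraries, at up to 0.0707, and with no filter (0.0543). The count of 3 was 1 without control replicate 3, Zscan4f replicate 2 or Zscan4f replicate 3. Of 28 genes named from the 7 lists as called against control, 19 kept the call whichever library was left out, and 9 lost it at least once: Slc7a2, Slc6a17, Slc25a13, Sfxn1, Aldh18a1, Rars, Got1, Sec13 and Rragd.

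**Figure D5:**
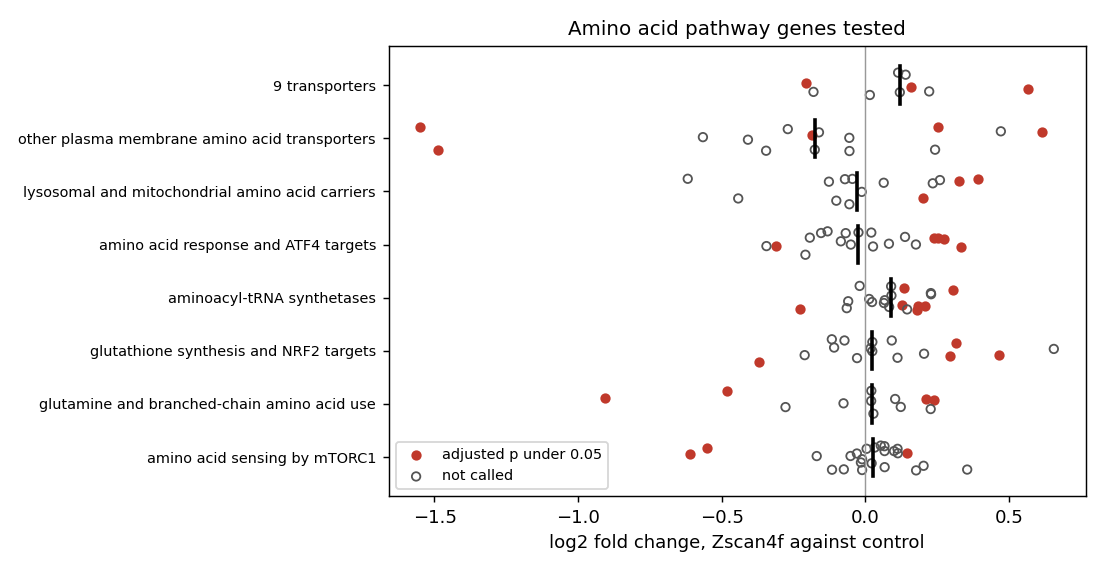
Log2 fold change on the log2(TPM + 1) scale of each tested gene, by pathway list, for Zscan4f against control, with called genes as filled points, the others open, and the list median as a vertical line. Positions across a row are spread only for legibility. The 9 transporters have a median of 0.12, and the medians of the 7 lists run from -0.18 to 0.09.

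By pattern over the 9 libraries, genes most like Slc38a1 among 11523 genes with a mean of at least 5 TPM included Ptprz1 (Pearson r = 0.995 on log2(TPM + 1)), Dusp18 (0.992), Sgpp2 (0.987) and Dsp (0.985). These points share the difference between groups, so the coefficients are a description. Ptprz1, a receptor tyrosine phosphatase, was at 69.9 ± 5.23 TPM in control, 125 ± 5.98 in the Zscan4f group and 78.8 ± 2.06 in the Zscan4f3A group. Dsp, the desmosome protein that is also one of the epithelial markers, was at 58.9 ± 1.75, 112 ± 5.31 and 62.6 ± 1.26 TPM.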

How the data were processed

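RNA-seq gene tables of 9 libraries, 3 per group, were used, with groups and replicate numbers from the labels. Titles without a named overexpression were read as control. Reads were aligned with HISAT2 2.1.0 and abundance was estimated with StringTie, per the submitters' processing notes. Build, annotation release and strand use were not given in the sources used here. Main values were the deposited TPM, which the authors scaled to an equal sum per library. The deposited FPKM values and the deposited coverage (mean read depth) served as alternatives. The tables hold no counts, so no counting interval is given and precision is the SD over 3 libraries. Of 54986 gene identifiers, 54079 were in the GRCm38 annotation, 97.7% of them with identical coordinates, and all 9 transporters were among these. Repeated identifiers (15) were summed, and 0 of 36 library pairs were identical.

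A gene entered when 3 or more libraries had a TPM of 1 or more (15837 genes), and was fitted as log2(TPM + 1) in R 4.3.3 with limma 3.58.1 (group means, trended empirical Bayes, all 9 libraries, two-sided). The pseudocount of 1 understates fold changes of low genes. P-values were adjusted by Benjamini-Hochberg over all genes, with calls under 0.05. The code was tested on simulated data. Sums were made in pandas 2.3.3 and numpy 2.4.6 and figures in matplotlib 3.10.9, under Python 3.11.15. The transporters, lists and motifs were chosen with earlier results of these data known. Named genes were the 9 transporters, up to 4 genes per list with the smallest p against control, every other listed plasma membrane transporter with a mean of at least 10 TPM in a group, and the 5 genes most correlated with Slc38a1, of which 1 is not reported here. Slc6a17, Slc7a3, Aldh18a1 and Atf4, and some cell type markers, were named outside this rule. Aligned gigabases are the commonest coverage to FPKM ratio of a library. Alternatives were quantile normalization, median-of-ratios scaling, FPKM, a pseudocount of 0.1, no filter, TPM of at least 5, a replicate block, fitting the 2 compared groups alone, leaving out each library, and, chosen after seeing the data, coverage per gigabase.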

Additional observations from a re-analysis of the deposited data

How the results depend on the processing

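Slc38a1 kept its direction and its call in both comparisons of Zscan4f under each of the 18 alternatives run, with adjusted p-values of 0.000189 to 0.00246 against control and 0.000632 to 0.00869 against Zscan4f3A. Leaving out a library each time, the number of the 9 transporters called ran from 1 to 3 for Zscan4f against control, from 0 to 0 for Zscan4f3A against control and from 1 to 3 for Zscan4f against Zscan4f3A. A fit of only the 2 groups compared gave 1 for the last. The listed pathway genes called ran from 21 to 33, 0 to 0 and 18 to 30. Fewer samples enter each of these fits. The labels do not say whether the replicate numbers pair the samples. The correlations of the deviations of the 9 same-numbered pairs ran from -0.0792 to 0.0533, and those of the other pairs from -0.0481 to 0.0540. No pairing shows in these values, but they cannot tell whether same-numbered libraries were prepared together. With the replicate block 2 transporters were called in either comparison of Zscan4f, and Slc7a5 lost its call (adjusted p = 0.0680 against control and 0.0629 against Zscan4f3A); over all genes 2504 were called for Zscan4f against control, 1 for Zscan4f3A against control and 1883 for Zscan4f against Zscan4f3A. The genes called between Zscan4f3A and control numbered 16 without Zscan4f3A replicate 3, 11 with coverage per gigabase, 9 without control replicate 2 and 1 without control replicate 3. By coverage per gigabase the light chains per heavy chain were 2.01 in control, 2.06 with Zscan4f and 2.17 with Zscan4f3A.

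Signs turned for differences near 0 that were not called. Slc6a9 against control with Zscan4f ran from -0.0587 (without control replicate 3) to 0.0561 with a library left out and was -0.0328 without Zscan4f replicate 1. For Zscan4f3A against control, Slc1a4 was -0.000965 with quantile normalization, -0.0067 without control replicate 2, -0.0257 without Zscan4f3A replicate 1 and -0.0223 without Zscan4f3A replicate 3, and at most 0.0499 with a library left out. Slc38a2 was -0.0162 without control replicate 2 and -0.0262 without Zscan4f3A replicate 1, and at most 0.0220 with a library left out. Slc7a5 then ran from -0.00176 to 0.0471. Slc1a5 between Zscan4f and Zscan4f3A ran from -0.141 to 0.078 with a library left out, the latter without Zscan4f3A replicate 3. The cause of the changes other than those of left-out samples was not tested. Zscan4f3A replicate 3 had the least sequence, at 3.31 gigabases, and its effect on the spread was not tested. The read depth over Slc7a11, the lowest of the 9 genes, was estimated as FPKM times the aligned gigabases of the library. This estimate, which is not the deposited coverage, ran from 11.5 to 31.6 reads per base.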
